A study of Mus musculus with 14 samples.

Results

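Mouse oligodendrocyte precursor cells (OPCs) given a small interfering RNA (siRNA) against Pdgfra, called siPdgfra, were compared with 4 control groups that carry the same Day3 label. The comparison used 10 of the 14 libraries of the series, chosen by their labels: 2 of siPdgfra and 2 each of non-treated cells, mock-transfected cells and cells given the non-targeting siRNAs NC siRNA #1 and NC siRNA #2. A gene entered if it had at least 1 FPKM in 2 or more of these libraries, which left 11535 of the 23427 genes in the table. FPKM is the number of sequenced fragments per kilobase of exon and per unit of mapped fragments in the library.

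All cells were wild-type primary OPCs of the C57BL/6J strain, taken from the pooled cortices of postnatal day 7 pups by immunopanning, in which cells stick to a dish coated with an antibody against PDGFRα. By the study's methods, differentiation was set off by withdrawing the growth factor PDGF-AA and adding the thyroid hormone T3, and every library compared here is labelled Day3. The timing of that step relative to transfection is not given in the sources used here. Each group had 2 replicates, and the sequence of the siRNA is not given in the sources used here. Transfection applied to mock, NC siRNA #1, NC siRNA #2 and siPdgfra, but not to the non-treated cells. Pdgfra was targeted in 1 siRNA group only, so the loss of Pdgfra and any other action of that siRNA cannot be told apart. Cells given an siRNA against Secisbp2l, called siSbp2l, and Day0 OPCs are set beside the results where they help to read a level.

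Pdgfra encodes the receptor tyrosine kinase for PDGF-AA, the growth factor that keeps OPCs dividing. OPCs lower the receptor as they leave the cell cycle, pass through a premyelinating stage and then make myelin proteins and lipids. The comparison asks which genes differ at Day3 in cells given an siRNA against the receptor.

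The siRNA target was measured first. Pdgfra (chromosome 5, plus strand, 75152291 to 75198204 in mm10) had 3.30 and 2.69 FPKM in the 2 siPdgfra libraries. In the 8 control libraries it had 32.4 at the lowest, a median of 54.2 and 72.1 at the highest, so the groups were far apart. Its mean in siPdgfra was 94.2% below that of the control groups, and its log2 fold change was -3.68 (limma, adjusted p = 1.08e-07, SE 0.09). The Day0 OPCs had 409 and 436 FPKM and the siSbp2l libraries 150 and 144. Of the other PDGF genes, the ligand gene Pdgfc was at 3.69 and 3.78 FPKM in siPdgfra and between 1.79 and 2.38 in the controls (log2 fold change 0.65, limma, adjusted p = 0.000416) that stayed under 2-fold. The ligand gene Pdgfa was at 28.9 and 29.2 FPKM, above all 8 controls (12.2 to 26.4), with a log2 fold change of 0.58 that did not pass the test (limma, adjusted p = 0.0553). Pdgfb, Pdgfd and the second receptor gene Pdgfrb stayed at or under 0.444 FPKM in the 10 libraries and were not tested.

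The depth of a library, recovered from the steps between low FPKM values, was 18449609 to 21361973 fragments in 9 of the 10 libraries and 6548394 in NC siRNA #2 replicate 2. Replicates of a group differed in log2(FPKM + 1) with an SD of 0.20 in siPdgfra and 0.148 to 0.175 in mock and both NC groups, but 0.461 in the non-treated pair, which stood apart. Defining genes of the lineage were high in every library: Olig2, a transcription factor of the lineage, had 190 and 173 FPKM in siPdgfra and 129 to 185 in the controls. The microglial genes Aif1 and C1qa and the endothelial gene Cldn5 were listed at 0 in all 10 libraries.

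The siRNA against Pdgfra went with a broad change in both directions. Against the mean of the 4 controls, 462 genes were higher and 468 lower in siPdgfra at a fold change of at least 2 and an adjusted p under 0.05 (limma), which is 8.06% of the genes tested (4.01% higher and 4.06% lower). A gene past both thresholds is described here as called. Without the fold change threshold 30.4% of the genes passed as higher and 21.6% as lower. Called counts of gene lists are to be read beside 4.01% and 4.06%, counts by adjusted p alone beside 30.4% and 21.6%. The balance of directions moved with scaling, to 397 higher and 539 lower after median-ratio scaling and to 375 and 569 after upper-quartile scaling. Over all genes tested the median of the log2 fold changes was 0.09, 0.03 and 0.01 in these 3 settings.

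Against single controls, siPdgfra had 1276 called genes (non-treated), 1097 (mock), 1134 (NC siRNA #1) and 1192 (NC siRNA #2), and 421 (3.65%) were called in one direction against every one of them, 206 higher and 215 lower. Of the 930 genes called against the mean, 904 had both siPdgfra libraries above or below all 8 controls. Over all genes tested, both siPdgfra libraries lay above the 8 controls in 26.7% and below them in 17.5%. The control groups themselves differed less. Set against the other 3 controls, 47 genes (0.407%) were called for non-treated, 39 (0.338%) for mock, 300 (2.6%) for NC siRNA #1 and 212 (1.84%) for NC siRNA #2. The mock count was lower with either mock library left out, which leaves 1 library in that group. The non-treated count was 177 without non-treated replicate 1.

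**Figure D1:**
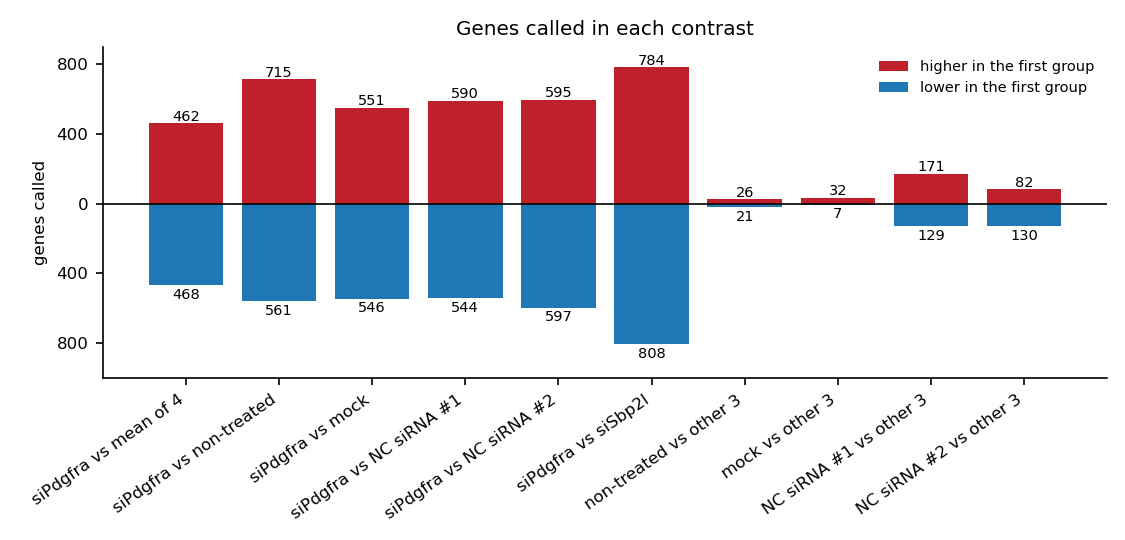
Number of genes called in each contrast (vertical axis), with bars above 0 for genes higher in the first group named and bars below 0 for genes lower in it. The contrasts of siPdgfra with single controls have 544 to 715 genes in each direction. The contrast of siPdgfra with the mean of the 4 controls has 462 higher and 468 lower. Those of each control with the mean of the other 3 have 171 at most in a direction.

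A direct contrast with siSbp2l, which shares no library with siPdgfra, shows how many of the genes also differ from cells given another gene-targeting siRNA. It had 1592 called genes of 11650 tested (13.7%), 784 higher and 808 lower in siPdgfra. Of the 930 genes called against the controls, 527 were called in the same direction against siSbp2l (256 higher, 271 lower), 5 in the opposite direction, and 398 were not called.

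The 12 largest rises are described first. Slc44a5, a choline transporter-like gene (chromosome 3, plus strand, 153973436 to 154271720), was at 101 and 91.5 FPKM in siPdgfra. Its controls had 4.56 at the lowest, a median of 4.93 and 6.69 at the highest. This was the largest rise among genes of at least 10 FPKM that were called against all 4 controls, by 4.0 on the log2 scale (SE 0.12, limma, adjusted p = 2.79e-07), and it was between 3.90 and 4.07 whichever control was used. The siSbp2l libraries had 11.6 and 12.3 FPKM, so the gene stood above them as well (log2 difference 2.91, limma, adjusted p = 3.99e-07).

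Pkd2l1, which encodes a cation channel of the TRP family, went from near the floor to clear expression. It had 21.1 and 20.7 FPKM in siPdgfra and 0.130 to 0.244 in the non-treated, mock and NC siRNA #2 libraries, while NC siRNA #1 had 2.47 and 2.01. The log2 fold change was 3.86 against the mean (limma, adjusted p = 8.39e-08, SE 0.09) and smallest against NC siRNA #1, at 2.76. Fam38b, the older symbol of the mechanically gated channel gene Piezo2, had 28.0 and 30.3 FPKM against 1.65 to 2.86 in the controls, a log2 fold change of 3.21. Clcn5, an endosomal chloride and proton exchanger, had 45.1 and 44.7 FPKM, and its controls ran from 3.35 to 12.9 with a median of 5.71. For Clcn5 this was a log2 fold change of 2.63, and the 2 NC siRNA #1 libraries were again the highest controls, at 12.9 and 12.2.

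The lipid phosphatase gene Ppapdc1b was at 43.8 and 37.8 FPKM against 3.0 to 4.42 in the controls (log2 fold change 3.13). Pmp2, a fatty-acid-binding protein of peripheral myelin, was at 32.1 and 31.7 FPKM against 1.04 to 7.28 (log2 fold change 2.87), and the siSbp2l libraries were at 0.181 and 0.0676. Stmn4, a microtubule-binding stathmin, had 80.2 and 86.0 FPKM and control values of 8.69 to 25.2, with siSbp2l in between at 39.2 and 36.8. The actin-bundling plastin gene Pls1 rose by a log2 fold change of 2.51, Cnih3, an accessory protein of AMPA receptors, by 2.78, and Rasal2, a GTPase-activating protein for Ras, by 2.59. Heg1, a membrane protein known from blood vessel development, and the uncharacterised A930003A15Rik completed the 12 largest, at log2 fold changes of 2.76 and 2.54. All 12 were also called as higher than siSbp2l.

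Most of the largest falls were genes that were low in Day0 OPCs and higher in the Day3 controls. Sema4a, a membrane-bound semaphorin (chromosome 3, minus strand, 88435962 to 88461182), was at 0.199 and 0.213 FPKM in siPdgfra. The controls had 8.66 at the lowest, a median of 14.9 and 30.8 at the highest, and Day0 OPCs had 0.0934 and 0.0292. For Sema4a the log2 fold change was -3.72 (limma, adjusted p = 8e-07, SE 0.14), the largest fall by that rule, ahead of Pdgfra itself. The siSbp2l libraries had 1.75 and 1.63 FPKM, and siPdgfra was lower than these too (log2 difference -1.16, limma, adjusted p = 0.000316).

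Alox5, the enzyme that starts leukotriene synthesis, was also low at Day0, and its difference between the knockdowns did not pass the test. It had 0.975 and 0.407 FPKM in siPdgfra, 9.87 to 24.4 in the controls, and 0.506 and 0.457 in siSbp2l. The log2 fold change was -3.44 against the controls (limma, adjusted p = 1.08e-06, SE 0.14) and 0.17 against siSbp2l (limma, adjusted p = 0.433, SE 0.17). Rims2, a scaffold protein of synaptic release sites, was at 2.47 and 2.20 FPKM against 9.15 to 45.3 (log2 fold change -2.86). The endoplasmic reticulum protein gene Erp27 was at 0.294 and 0.315 FPKM against 4.02 to 13.3, and was listed at 0 in both Day0 libraries.

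Some falls were of genes that kept the level of the controls in siSbp2l. Eif4g2, a translation initiation factor used in cap-independent initiation, is expressed in most cells. It was at 43.4 and 40.0 FPKM in siPdgfra, against a control median of 221 (lowest 195, highest 271), 283 and 300 at Day0 and 225 and 232 in siSbp2l. Relative to the controls it changed by -2.38 on the log2 scale (limma, adjusted p = 2.18e-06, SE 0.12) and relative to siSbp2l by -2.43 (limma, adjusted p = 8.53e-07). Col11a2, a fibrillar collagen gene, was at 0.967 and 1.22 FPKM, the controls at 9.04 to 16.9, siSbp2l at 13.4 and 13.3 and Day0 at 1.08 and 0.698. Other falls by the rule were Dlk2 (log2 fold change -2.70), Adam11 (-2.59), the collagen gene Col20a1 (-2.46) and the inward rectifier potassium channel gene Kcnj12 (-2.42). Of the 12 largest falls, 7 were also called as lower than siSbp2l.

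**Figure D2:**
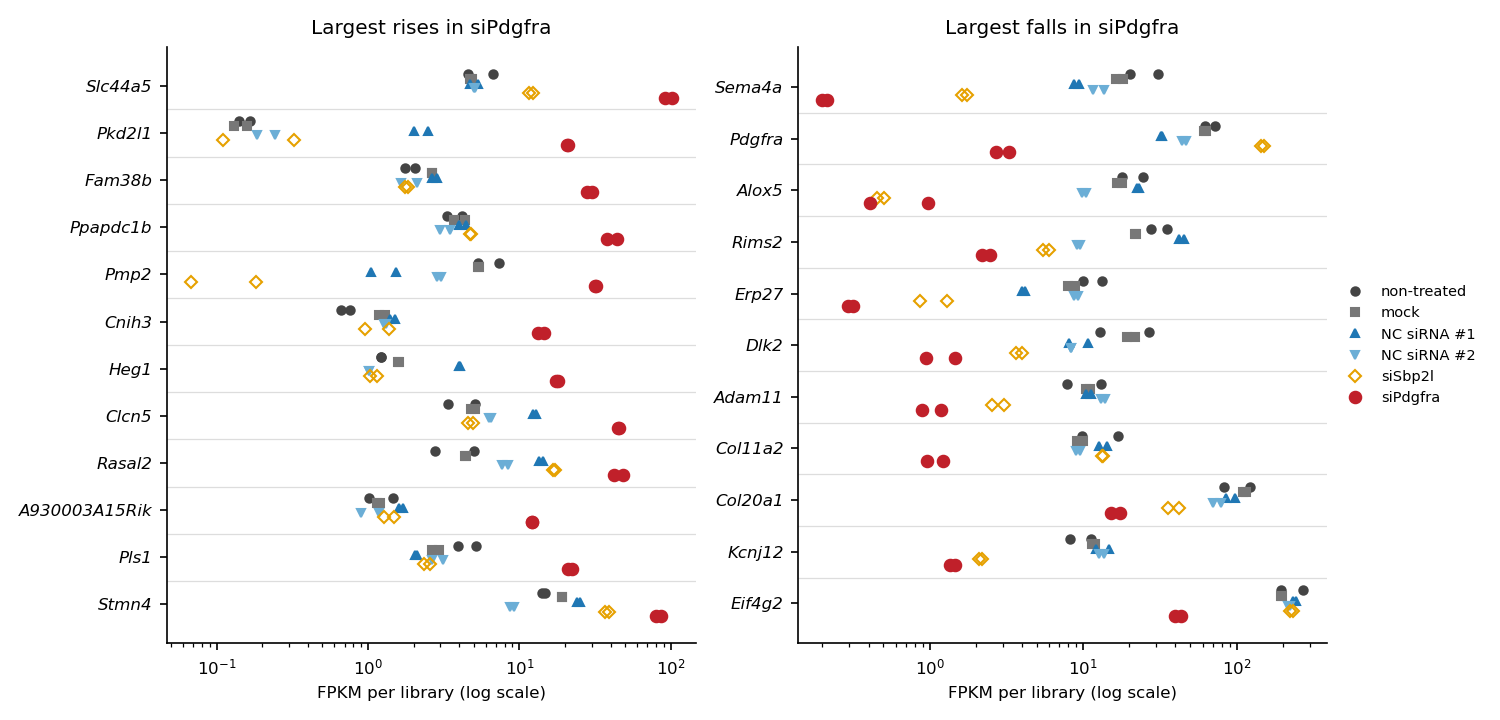
FPKM in each Day3 library (horizontal axis, log scale) of the 12 largest rises and 11 of the 12 largest falls, 1 gene per row, with 2 points per group. The 2 siPdgfra points lie outside all 8 control points in every row, which largely follows from choosing genes called against each control. For Alox5 the siPdgfra points overlap the siSbp2l points.

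The genes of each stage of the lineage did not move as a block. Among OPC markers, 20 of 24 were tested, 0 were called as higher and 4 as lower, with a median log2 fold change of -0.44, beside 0.09 for all genes tested. At an adjusted p under 0.05 with no fold threshold, 14 were lower and 2 higher (limma). Lhfpl3, a tetraspan membrane protein typical of OPCs, had 48.5 and 41.8 FPKM in siPdgfra and 137 to 288 in the controls, with a median of 178. It fell by 2.01 on the log2 scale (limma, adjusted p = 4.53e-05, SE 0.19), below its Day0 level of 70.7 and 73.7. The semaphorin gene Sema5a (-1.77) and the proteoglycan gene Bcan (-1.68) were also called.

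Of the markers fixed for the OPC stage, Cspg4, the NG2 proteoglycan, was at 0.540 and 0.448 FPKM. Its controls were at 0.958 to 2.81 with a median of 1.88. The log2 fold change of Cspg4 was -0.96 and short of 2-fold on the log2(FPKM + 1) scale, which understates a change at such low levels. Ptprz1 was at 57.5 and 53.7 FPKM, at the low end of the controls (54.0 to 118). Fewer cells of a type and less RNA per cell cannot be told apart in such bulk libraries.

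Premyelinating genes had calls in the lower direction only. Of 20 tested, 3 were called as lower and 0 as higher, 12 had an adjusted p under 0.05 in the lower and 4 in the higher direction (limma), and the median was -0.60. Itpr2, an endoplasmic reticulum calcium channel that marks newly formed oligodendrocytes (OLs), was at 3.53 and 3.52 FPKM, with controls from 10.9 to 34.2 and 2.46 and 2.49 at Day0. It fell by 2.32 (limma, adjusted p = 8e-07, SE 0.09). Enpp6, a choline-specific phosphodiesterase of the same stage, was at 115 and 106 FPKM against a control median of 259 (lowest 175, highest 515), a log2 fold change of -1.24. Gpr17, a receptor of the premyelinating stage, was at 178 and 156 FPKM against 173 to 229 and did not pass the test (log2 fold change -0.25, limma, adjusted p = 0.0578).

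Tcf7l2, a transcription factor that acts transiently at this stage, was at 25.2 and 26.3 FPKM, below all 8 controls (47.2 to 61.0) and above Day0 (9.04 and 7.62). The change was -1.04 from the mean of the controls on the log2 scale (limma, adjusted p = 1.08e-05, SE 0.08), -1.16 from non-treated, -1.19 from mock, and -0.87 and -0.93 from NC siRNA #1 and #2. It was also lower than in siSbp2l (log2 difference -0.83, limma, adjusted p = 3.43e-05), where it had 45.0 and 48.1 FPKM. The 2-fold call ended, at log2 fold changes of -0.99 and -1.0, when the mock or the non-treated group was left out, and at -0.94 with a pseudocount of 5 in place of 1.

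Myelin and OL maturation genes split. Of 36 tested, 6 were called as higher and 5 as lower, and the median was 0.05, or -0.27 without the NC siRNA #2 group and 0.15 without NC siRNA #1. Mag, a cell adhesion molecule of the myelin sheath next to the axon, had 59.6 and 59.2 FPKM in siPdgfra, and the controls had 135 at the lowest, a median of 415 and 528 at the highest. It fell by 2.38 (limma, adjusted p = 1.42e-05, SE 0.18) and was level with siSbp2l, at 51.0 and 60.4. Tppp, which bundles the microtubules of OL processes, had 71.6 and 74.0 FPKM against 215 to 446 (log2 fold change -2.15, SE 0.09, limma, adjusted p = 8.46e-07). Plekhb1 and Nfasc were also called as lower.

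The rises in this list followed NC siRNA #1 in several cases. Apod, a lipid-binding lipocalin of mature OLs, had 26.1 and 26.6 FPKM in siPdgfra and 23.8 and 23.4 in NC siRNA #1, but 0.872 to 2.76 in the 6 other control libraries. Apod rose by 2.49 on the log2 scale relative to all controls but its difference was 0.15 from NC siRNA #1 (limma, adjusted p = 0.348). Gjb1, a connexin of gap junctions, was the called rise that held against every control, at 11.5 and 10.0 FPKM against 0.908 to 3.12 (log2 fold change 1.87, SE 0.21, limma, adjusted p = 0.000137). The other called rises were Cryab, Nipal4, Gsn and Ermn, and for Nipal4 and Ermn the NC siRNA #1 libraries were higher than siPdgfra.

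Among the myelin genes that the study followed, Mbp, a main protein of compact myelin, stayed within the controls, at 777 and 750 FPKM against 434 to 1188 (log2 fold change 0.03, SE 0.16, limma, adjusted p = 0.895). That value changed sign with scaling, to -0.04 after median-ratio and -0.07 after upper-quartile scaling. Cnp, an enzyme of the myelin membrane, was at 1108 and 1015 FPKM against 1273 to 1895 (log2 fold change -0.57, limma, adjusted p = 0.00555). Mobp lay between the controls, at 8.91 and 11.9 FPKM, with NC siRNA #1 at 103 and 101 and NC siRNA #2 at 5.05 and 5.93. Both Mbp and Mobp were higher than in siSbp2l, by log2 differences of 2.00 (limma, adjusted p = 2.13e-05) and 1.28 (limma, adjusted p = 2.74e-05).

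The lists of transcription factors that drive or hold back differentiation, which do not include Tcf7l2, showed no call. Of 12 that drive differentiation, 0 were called, while 3 had an adjusted p under 0.05 in the higher and 1 in the lower direction (limma). Of 13 that hold it back the numbers were 0 called, 4 higher and 5 lower. Over all genes tested, 30.4% were higher and 21.6% lower by adjusted p alone, and such small counts were not tested against these shares. Olig1 was at 523 and 479 FPKM and controls at 262 to 495. Of 9 thyroid hormone genes tested, 3 were called as lower and 0 as higher, with a median of -0.57. Thra, the main nuclear T3 receptor, was at 53.7 and 58.7 FPKM against 94.7 to 142 (log2 fold change -1.05, limma, adjusted p = 0.000249), and its call ended at -0.98 to -0.99 without non-treated replicate 1, siPdgfra replicate 1 or the mock group. Dbp, a clock output factor, had 11.8 and 12 FPKM against 15.3 to 36.4 (-1.10), or -0.91 with a pseudocount of 5 and -0.96 without the NC siRNA #2 group, where it was not called.

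**Figure D3:**
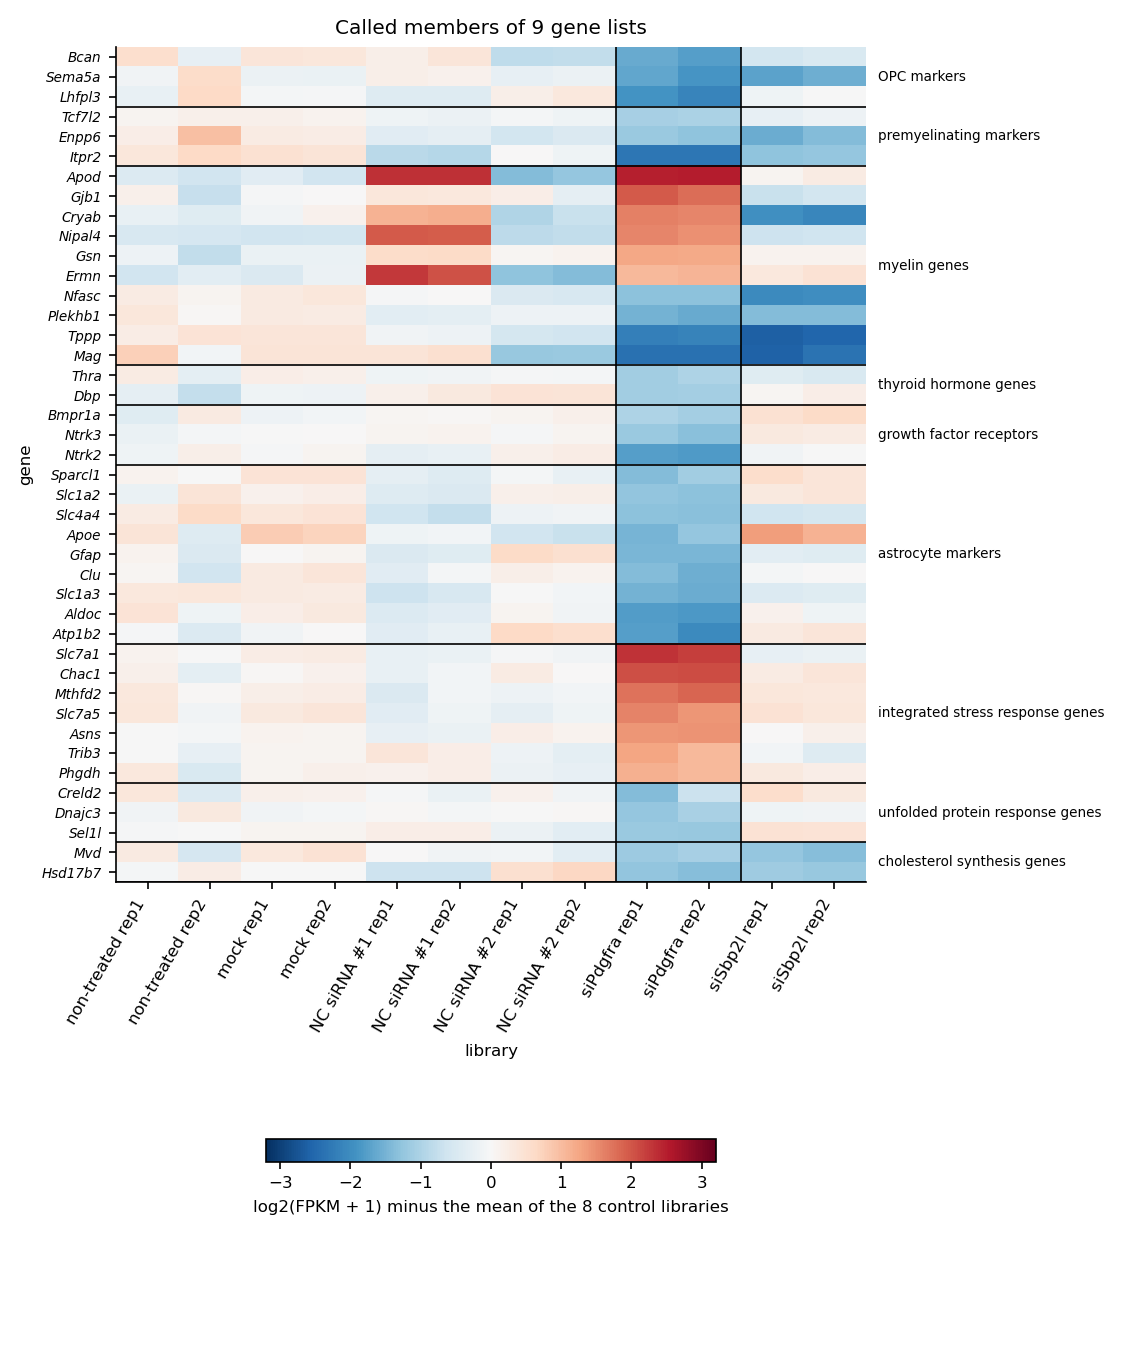
Log2(FPKM + 1) of called members of 9 gene lists minus its mean over the 8 control libraries (color), 1 gene per row and 1 Day3 library per column. Amino acid stress genes such as Slc7a1 are higher in both siPdgfra columns only, while Apod and Nipal4 are higher in NC siRNA #1 as well.

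Part of the amino acid stress genes rose, while some genes of endoplasmic reticulum stress fell. The integrated stress response is a program in which slowed translation initiation favors the transcription factor Atf4, which turns on amino acid synthesis and uptake. The unfolded protein response raises chaperones of the endoplasmic reticulum, and both share a sensor kinase. Of 23 integrated stress response genes tested, 7 were called as higher and 0 as lower, 5 of them against all 4 controls, and the median log2 fold change was 0.58. Of 14 unfolded protein response genes, 0 were called as higher and 3 as lower, with a median of -0.56.

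Slc7a1, a carrier of arginine and lysine, had 31.9 and 29.8 FPKM in siPdgfra, and the controls had 4.63 at the lowest, a median of 5.51 and 6.98 at the highest. It rose by 2.27 (limma, adjusted p = 5.79e-07, SE 0.08) but stayed below Day0, at 50 and 47.2. Chac1, which degrades glutathione, had 10.3 and 10.5 FPKM against 1.19 to 2.27 (log2 fold change 2.08) and Day0 values of 4.41 and 3.26. Mthfd2, a mitochondrial one-carbon enzyme, had 18.6 and 20.1 against 3.26 to 6.33 (1.80), and Slc7a5, a carrier of large neutral amino acids, 27.6 and 24.2 against 6.37 to 11.6 (1.49). The groups did not overlap for any of these 4 genes, which were picked as the largest called changes of the list. Of all 930 called genes, 904 lay outside the 8 controls, and of all genes tested 26.7% lay above them. Each of the 4 genes was also called as higher than siSbp2l.

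Not every target moved. Asns, asparagine synthetase, was at 52.8 and 53.3 FPKM against 15.8 to 22.6 (log2 fold change 1.42, limma, adjusted p = 2.31e-06), and Trib3 and Phgdh were the other called members. Atf4 itself was at 118 and 109 FPKM against 65.5 to 98.8, a log2 fold change of 0.58 that passed the test but not 2-fold (limma, adjusted p = 0.00711). Ddit3, the stress factor CHOP, was at 11.6 and 15.3 FPKM, within the controls (11.0 to 21.0), and the serine synthesis gene Psat1 was at 118 and 113, also within them (84.0 to 164). These last 3 were chosen after their values were seen.

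Sel1l, which serves degradation of misfolded proteins, was at 15.9 and 15.8 FPKM against 29.4 to 44.1 (log2 fold change -1.20, limma, adjusted p = 5.40e-06), and siSbp2l was at 52.5 and 51.1. Dnajc3, a co-chaperone that also inhibits the sensor kinase, was at 12 and 13.9 FPKM against 27.4 to 37.4 (-1.15), or -0.96 with a pseudocount of 5, which ended the call. Creld2, a stress-induced protein of the same compartment, was at 5.21 and 8.99 against 10.9 to 19.8 (-1.03), and without siPdgfra replicate 1 it no longer passed (-0.69, limma, adjusted p = 0.08). The Creld2 call also ended with a pseudocount of 5 (-0.75), without non-treated replicate 1 (-0.93) and without the mock group (-0.98).

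The stretch of sequence that Atf4 binds with its partners, the CARE element, was searched in RefSeq promoters of these genes as the letters TGATGNAA on both strands, in the 250 bases before each start. This motif was added after the rises were seen, and a match is a description of the letters only. It was present in 2 of 6 called stress genes with a promoter in the table, in 3 of 16 that were not called and in 2.27% of all 9250 tested genes with a promoter. The windows below are shown since they carry the motif in genes that rose (Asns, Chac1) and in genes that were not called (Pycr1, Vldlr), and Slc7a11 held it as well. They are given 5′ to 3′ on the strand of the gene with the motif, or its reverse complement, in capitals, in GRCm38.p6.
Asns, chr6:7693210-7693252, minus strand: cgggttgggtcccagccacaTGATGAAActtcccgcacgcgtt
Chac1, chr2:119351029-119351076, plus strand: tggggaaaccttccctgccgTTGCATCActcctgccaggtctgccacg
Pycr1, chr11:120643824-120643871, minus strand: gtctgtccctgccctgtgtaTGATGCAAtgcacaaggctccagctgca
Vldlr, chr19:27216800-27216847, plus strand: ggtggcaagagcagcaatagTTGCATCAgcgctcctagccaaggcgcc

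Other promoter motifs were counted over the 300 bases around the start in 11862 promoters, with no test. The ETS motif CCGGAAG was in 18.0% of promoters of all genes tested, in 5.81% of those of genes called as higher and in 10.1% of those called as lower. The E2F motif TTCGCGC was in 3.21%, 0.830% and 1.85%, and the CRE motif TGACGTCA in 3.29%, 2.70% and 1.23%. The counts behind these shares were small. E2F was in 4 of 482 promoters of genes called as higher and 9 of 486 of those called as lower, and CRE in 13 and 6. The AP-1 motif TGANTCA was in 4.62%, 6.64% and 5.14%, and the Tcf/Lef motif CTTTGAT in 2.45%, 3.94% and 1.85%. Not all motifs counted are given here.

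Lists of growth factor signalling held 0 to 3 called genes each, of 14 to 23 tested. Over all genes tested 8.06% were called, and by adjusted p alone 30.4% were higher and 21.6% lower. Counts this small were not tested against these shares. Of 14 feedback genes of the ERK pathway, which ERK activity induces and which in turn dampen it, 2 were called as higher and 0 as lower. Dusp5, a nuclear ERK phosphatase, was at 5.22 and 4.16 FPKM against 0.365 to 1.58 in the controls (log2 fold change 1.55, limma, adjusted p = 0.000203). Spred2, an inhibitor of the pathway, was at 14.2 and 14.8 against 4.82 to 9.61 (1.03) and had 15.1 and 15.5 in siSbp2l. With a pseudocount of 5 neither reached 2-fold (Dusp5 0.70, Spred2 0.75). For Dusp5, at a mean of 4.69 FPKM, that pseudocount left no room for a 2-fold rise, even from 0. The Spred2 call also ended after either scaling and without either NC group, at 0.94 to 0.97. Of 16 immediate early genes 0 were called, while 3 had an adjusted p under 0.05 in the higher and 2 in the lower direction (limma). Jun was at 62.9 and 67.7 FPKM, above the controls (31.5 to 52.3) (log2 fold change 0.48, limma, adjusted p = 0.0241).

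Of 16 FoxO targets, which growth factor signalling represses, 1 was called, as lower. This was Sesn3, a sestrin, at 12.1 and 14.4 FPKM against 26.0 to 40.5 (log2 fold change -1.36). Growth factor and cytokine receptors had 3 of 23 called as lower and 0 as higher, with a median of -0.05. The neurotrophin receptor genes Ntrk2 and Ntrk3 had 17.0 and 16.4, and 3.18 and 2.72 FPKM, against control ranges of 49.5 to 71.3 and 7.15 to 9.15. Their log2 fold changes were -1.79 (limma, adjusted p = 2.85e-06) and -1.26 (limma, adjusted p = 9.94e-06). Bmpr1a, a BMP receptor, fell by 1.04. With a pseudocount of 5 the log2 fold changes of Ntrk3 (-0.76) and Bmpr1a (-0.94) fell short of 2-fold, and that of Bmpr1a also without non-treated replicate 2 (-0.95), without siPdgfra replicate 2 (-0.99) and without the NC siRNA #2 group (-0.99). In the Wnt list, Nkd1, a feedback inhibitor, was at 31.6 and 32.9 FPKM against 10.3 to 19.9 (log2 fold change 1.20), near its Day0 level of 34.3 and 33.1, and Tcf7l2 was the called fall. Of 31 interferon response genes only 8 were tested and 0 called, with 4 higher and 1 lower by adjusted p alone (limma).

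The level of DNA replication and mitosis genes relative to the controls depended on which control was used. Of 41 tested, 2 were called as higher and 0 as lower, 32 had an adjusted p under 0.05 in the higher direction (limma), and the median log2 fold change was 0.62, or 0.26 with a pseudocount of 5 and 0.93 with 0.1. Against single controls the median was 1.33 for NC siRNA #1 and 1.01 for NC siRNA #2, but 0.11 for non-treated and 0.06 for mock. The summed level of the list was 291 and 307 FPKM in siPdgfra and 143 to 318 in the controls. Prc1, a spindle midzone protein, was at 9.31 and 10.8 FPKM, and at 7.46 to 9.13 in non-treated and mock, 0.724 to 1.46 in the NC groups and 107 and 117 at Day0. Its log2 fold change was 1.37, but 0.75 with a pseudocount of 5 and 0.95 without the NC siRNA #1 group, where the call ended.

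Ccne2, the cyclin that opens S phase, rose by 1.06 against the mean and was at 5.61 and 5.16 FPKM, with the non-treated group highest among controls at 2.92 and 4.36. The Ccne2 call ended with a pseudocount of 5 (0.54), after either scaling (1.0 and 0.98) and without either NC group (0.97 and 0.96). Among G1 cyclins and inhibitors 1 of 12 was called, Ccnd3, at 208 and 174 FPKM against 37.5 to 120 (log2 fold change 1.42, limma, adjusted p = 0.000449). Ccnd1, the cyclin of cycling OPCs, was at 18.8 and 18.8 FPKM, against 14.5 and 16.3 in non-treated, 18.8 to 20 in mock, 5.43 to 8.96 in the NC groups and 329 and 304 at Day0.

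A few enzymes of lipid synthesis fell. Of 24 cholesterol synthesis genes, 3 were called as lower and 0 as higher, with a median of 0.02. Hsd17b7, an enzyme of the later sterol steps, was at 13.7 and 12.9 FPKM against 21.6 to 55.0 in the controls (log2 fold change -1.32, SE 0.09, limma, adjusted p = 9.94e-06), and siSbp2l was at 15.3 and 14.5. Mvd, an enzyme of the mevalonate steps, was at 13.5 and 14.5 FPKM against 21.2 to 43.5 (-1.11), and fell short of 2-fold with a pseudocount of 5 (-0.94) and without the mock group (-0.98). Of 24 genes of myelin lipid synthesis, 2 were called as lower, the fatty acid elongase gene Elovl7 (31.5 and 33.0 FPKM against 97.1 to 174, log2 fold change -1.84) and the phosphatidylethanolamine synthesis gene Pcyt2 (-1.19).

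Astrocyte-type genes were the list with the largest share of calls. Of 13 tested, 9 were called as lower, 0 as higher and 4 against every control, and the median was -1.32. Atp1b2, a sodium pump subunit of glia, was at 61.3 and 50.1 FPKM, and controls at 155 to 328 with a median of 199 (log2 fold change -1.91, SE 0.13, limma, adjusted p = 7.50e-06). Aldoc, a glycolytic enzyme, was at 10.6 and 10.1 against 28.3 to 52.6 (-1.81), and the glutamate transporter gene Slc1a3 at 10.8 and 10.1 against 20.2 to 42.5 (-1.55). Clu, a secreted chaperone, fell by 1.48. Gfap, the astrocytic filament protein, was at 18.0 and 18.1 FPKM against 36.8 to 79.2 (-1.46), and had 0.677 and 0.755 at Day0. Of the other defining astrocyte genes, Slc1a2 was at 6.826 and 6.502 FPKM in siPdgfra, below all 8 controls (12.6 to 23.7). Aldh1l1 was at 2.424 and 2.596 FPKM, also below the controls (3.93 to 7.13). Aqp4 stayed at 0.196 to 0.608 FPKM and Gja1 at 0 to 0.0523 in the 10 libraries. The summed level of the list was 551 and 553 FPKM in siPdgfra and 694 to 983 in the controls, and the share of astrocytes in the cultures was not tested.

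Of 12 neuron-type genes tested, 1 was called as higher and 0 as lower, with a median of 0.45. Syt1, a calcium sensor of synaptic vesicles, was at 4.49 and 4.95 FPKM against 0.354 to 1.70 (log2 fold change 1.64, or 0.73 and not called with a pseudocount of 5). With that pseudocount no rise to under 5 FPKM can reach 2-fold. The summed level was 636 and 663 FPKM against 329 to 548. Of the other defining neuronal genes, Tubb3 was at 235 and 230 FPKM in siPdgfra, within the controls (46.3 to 273, median 109). Rbfox3, Snap25, Slc17a7 and Gad1 stayed at or under 0.753 FPKM in these libraries and were not tested. Among microglial markers 3 of 15 were tested, of which P2ry12 was called as higher (1.08), though it was at 7.57 and 6.57 FPKM, within the controls, whose highest were the NC siRNA #1 libraries at 9.46 and 8.78. The 1 tested gene of the endothelial, mural and fibroblast list, Kdr, was at 0.626 and 0.698 FPKM against 1.02 to 1.80.

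**Figure D4:**
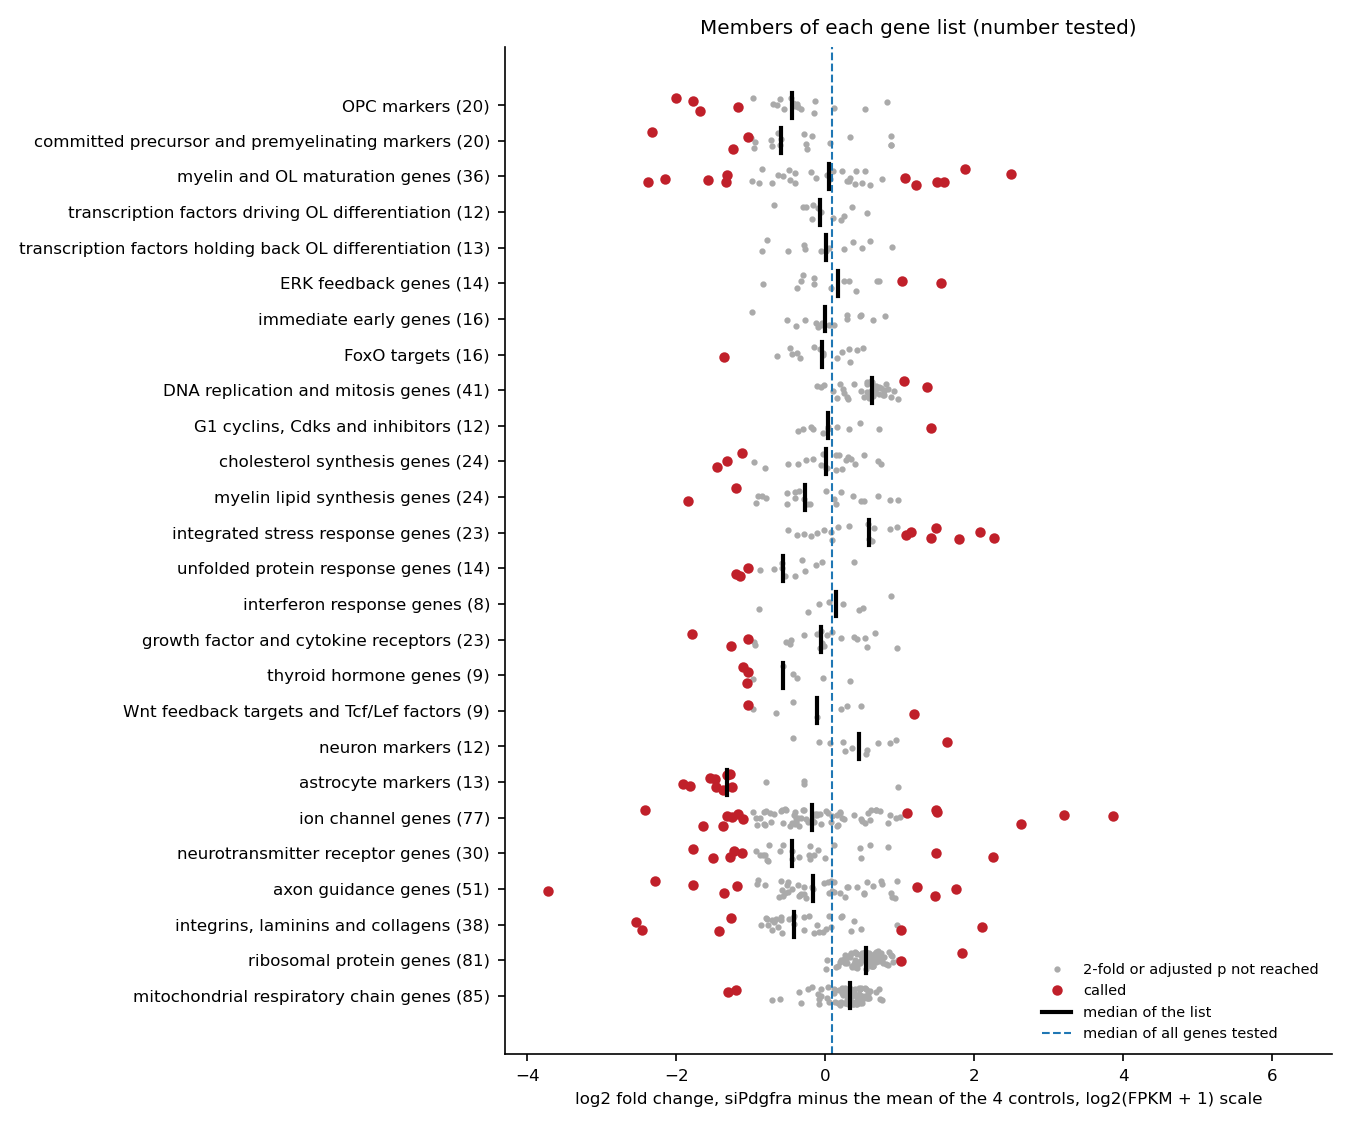
Log2 fold change of siPdgfra minus the mean of the 4 controls (horizontal axis) for the tested members of each gene list with at least 8 of them, 1 point per gene, with red points for called genes, a black bar for the median of the list and a dashed line for all genes tested (0.09). The astrocyte list lies lowest with a median of -1.32, and the myelin list spreads to both sides.

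Lists of channel, receptor and matrix genes held calls in both directions, and their medians lay below 0. Of 77 ion channel genes, 6 were called as higher and 7 as lower with a median of -0.18 (-0.10 with a pseudocount of 5), and Pkd2l1, Fam38b, Clcn5 and Kcnj12 had the largest changes. Of 30 neurotransmitter receptor genes, 2 were called as higher and 5 as lower, 6 and 16 passed by adjusted p alone (limma), and the median was -0.45, or -0.19 with a pseudocount of 5. The nicotinic receptor gene Chrna4 was at 15.1 and 13.2 FPKM against 1.21 to 4.48 (log2 fold change 2.25), near its Day0 level of 11.6 and 10.6, and the metabotropic glutamate receptor gene Grm5 was at 2.34 and 2.18 against 7.10 to 16.3 (-1.77). Grid1, a delta-type glutamate receptor, had a log2 fold change of -1.5, and Chrm4, a muscarinic receptor, of 1.48, and with a pseudocount of 5 these were -0.97 and 0.62, short of 2-fold.

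Axon guidance genes had 3 of 51 called as higher and 5 as lower. Beside Sema4a and Sema5a, the ephrin receptor gene Ephb1 was at 7.40 and 8.50 FPKM against 24.3 to 61.8 (log2 fold change -2.28), and the semaphorin gene Sema3e at 12.4 and 13.2 against 2.27 to 3.75 (1.75). Of 38 integrin, laminin and collagen genes, 2 were called as higher and 4 as lower, and 6 and 21 passed by adjusted p alone (limma). The median was -0.42, or -0.17 with a pseudocount of 5 and -0.62 with a filter of 5 FPKM. Col18a1, a basement membrane collagen, was at 37.8 and 36.6 FPKM against 3.72 to 14.3 (log2 fold change 2.10, limma, adjusted p = 6.16e-06), while Col16a1, a fibril-associated collagen, was at 32.1 and 38.6 against 69.8 to 138 (-1.43).

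Ribosomal protein genes were shifted as a list by less than 2-fold. Of 81 tested, 58 had an adjusted p under 0.05 in the higher and 0 in the lower direction (limma), with a median of 0.55, or 0.31 against mock and 0.83 against NC siRNA #1. The summed level was 26469 and 30059 FPKM in siPdgfra and 16066 to 24788 in the controls. Only 2 were called, Rps13 (496 and 417 FPKM against 142 to 286, log2 fold change 1.02, below 2-fold under 8 alternatives) and Rpl26, whose controls ran from 4.56 to 35.5 FPKM (1.83, SE 0.68, limma, adjusted p = 0.0492). Genes with processed copies elsewhere in the genome, as ribosomal protein genes have, can share reads with them. Short genes as a whole were also shifted, with a median of 0.19 in the fifth of genes with the shortest exon length and 0.03 in the longest.

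Genes of the mitochondrial respiratory chain had a median of 0.33, with 28 of 85 higher and 6 lower by adjusted p alone (limma). Over all genes tested, 30.4% were higher and 21.6% lower in that way, so the share of higher genes was near that of all genes. The 2 called members went against that median. Atp5f1, a stalk subunit of ATP synthase, was at 68.8 and 76.7 FPKM against 147 to 207 (log2 fold change -1.31, limma, adjusted p = 1.33e-05), and Ndufc1, a subunit of complex I, at 18.8 and 16.0 against 33.0 to 45.4 (-1.19). Both were level with the controls in siSbp2l, at 170 and 167, and 42.7 and 45.4 FPKM.

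Genes of the selenoprotein pathway that the study examined had no call. Secisbp2l had 145 and 143 FPKM in siPdgfra, within the controls (135 to 255), and siSbp2l had 3.91 and 3.82. Secisbp2 was at 14.9 and 16.7 FPKM against 12 to 14.4 (log2 fold change 0.23, limma, adjusted p = 0.0405), and the selenoprotein gene Gpx4 at 281 and 273 against 184 to 299 (0.29, limma, adjusted p = 0.138). Larp6, an RNA-binding protein gene, was at 4.13 and 4.38 FPKM against 1.79 to 3.83, which did not pass the test (log2 fold change 0.40, limma, adjusted p = 0.0561), and siSbp2l had 0.492 and 0.479.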

How the data were processed

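The authors prepared stranded mRNA libraries and processed the reads with OmicSoft ArrayStudio on the mm10 refGene model (version and aligner not given in the sources used here), and deposited 1 table of FPKM values with 1 column per library. A second deposited table holds the authors' own comparisons of siSbp2l with the controls, made with DESeq2, and was used only for coordinates and exon lengths. Groups came from the sample labels. The members and gene lists were chosen with earlier results of these data known.

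Values were analysed as log2(FPKM + 1) with limma 3.58.1 in R 4.3.3, with its trend and robust options, 1 mean per group and each control group weighted equally. Fold changes are on that scale, on which changes of low genes are understated. Genes needed at least 1 FPKM in 2 or more of the 10 libraries (12 for siSbp2l). A call needed a fold change of at least 2 and a Benjamini-Hochberg adjusted p under 0.05 over all genes tested, two-sided. No set test was run, and lists are described by counts and medians. The fit was tested on simulated data.

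Named genes were those the study discusses, the PDGF genes, the 12 largest rises and falls among genes called against the mean and against each of the 4 controls with at least 10 FPKM in 1 library, and up to 4 members of each list with the largest change among those called, or the 2 with the highest level. Defining markers of cell types are given as well. Further members of a list, and the CARE motif, which was not planned, were picked after their values were seen. Depths are estimates from the steps of low FPKM values, and a floor of 3 fragments over 2 kb of exon came to between 0.0702 and 0.229 FPKM in the 10 libraries, covering counting error only. The study's methods state 2 independent replicates of cultured cells. Promoters were RefSeq's, in GRCm38.p6, and 9250 of the 11535 genes had one. Alternatives covered the pseudocount, filter, scaling, weights, moderation, samples fitted, replicate block, threshold and left-out libraries or groups. A few genes that the rule names are not reported here.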

Additional observations from a re-analysis of the deposited data

How the results depend on the processing

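The number of called genes depended most on the pseudocount and the threshold. Against the mean of the 4 controls, 930 genes (462 higher, 468 lower) became 1510 (716 and 794) with a pseudocount of 0.1, 382 (170 and 212) with 5, and 5990 (3501 and 2489) by adjusted p alone (limma). The 421 genes common to all 4 controls became 676, 163 and 2337 in the same order, and 634 without the NC siRNA #1 group. The 1592 genes against siSbp2l became 694 with a pseudocount of 5 and 6056 by adjusted p alone. For the control groups against the other 3, a pseudocount of 0.1 gave 205 (non-treated), 147 (mock), 644 (NC siRNA #1) and 402 (NC siRNA #2), a pseudocount of 5 gave 10, 3, 100 and 77, adjusted p alone gave 1609, 528, 2614 and 1937, and library weights gave 15 for non-treated.

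Leaving out 1 library gave 907 to 965 calls against the mean (415 to 492 higher, 458 to 492 lower), 378 to 423 in common, 1546 to 1632 against siSbp2l, and for the controls 46 to 177 (non-treated), 0 to 53 (mock), 280 to 316 (NC siRNA #1) and 188 to 223 (NC siRNA #2). With the replicate block the count against the mean was 931, in common 421 and against siSbp2l 1594. The numbers pair no samples by the labels, and the deviations of same-numbered replicates correlated at -0.386 to 0.219 over 10 pairs of groups, above 0.1 in 1.

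Of 93 named genes, 74 were called, and 56 of these kept the call under every alternative run. The pseudocount of 5 ended 15 of the other 18 calls, among them that of P2ry12 (0.55), which also ended without the non-treated or the mock group (0.81 in both) and without non-treated replicate 1 or siPdgfra replicate 1 (0.99 in both). A rise to a mean under 5 FPKM, as in Dusp5 and Syt1, cannot reach 2-fold with a pseudocount of 5. No called gene changed sign. Mbp reversed to -0.0448 (median-ratio), -0.0691 (upper-quartile), -0.0642 without non-treated replicate 2 and -0.23 without the NC siRNA #2 group, where Fos reversed to 0.0776, and Fos ranged from -0.20 to 0.0053 with 1 library left out (the latter without siPdgfra replicate 2). Mbp ranged from -0.0642 to 0.12 with 1 library left out. Rpl26 lost its call under 14 alternatives. Depth limits genes near the floor most in NC siRNA #2 replicate 2. Of the list medians under the alternatives, 65 of 695 moved by more than the spread between replicates, 10 of them with upper-quartile scaling, 9 with a pseudocount of 5 and 7 with a filter of 5 FPKM. The median of 9 of the 29 lists changed sign under at least 1 alternative, and that of cholesterol synthesis genes ranged from -0.08 to 0.13.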

Other observations

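Some gene families, picked by symbol after the values were seen and so given without a test of the family, held several called members. Of 18 genes of the Dusp family of phosphatases, 5 were called as higher in siPdgfra and 1 as lower (limma), beside 4.01% and 4.06% of all genes tested. The median log2 fold change of the family was 0.35 beside 0.09 for all genes. Dusp8, a phosphatase of the JNK and p38 kinases, was at 48.4 and 41.2 FPKM against 5.89 to 16.2 in the controls (log2 fold change 2.11), and Dusp10, of the same substrates, at 45.3 and 41.8 against 11.1 to 17.4 (1.58). Dusp16 rose by 1.55 and Dusp26 by 1.08, and Dusp18 fell by 1.00. Some of these changes were present in siSbp2l as well. There Dusp8 was at 22.8 and 25.6 FPKM and Dusp16 at 21.8 and 22.8 (controls 6.48 to 11.2). Dusp18 was at 2.20 and 1.95 in siSbp2l (controls 6.16 to 10.8). These 3 genes were not called between siPdgfra and siSbp2l, while Dusp5, Dusp10 and Dusp26 were called as higher than siSbp2l.

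Of 43 histone genes, 12 were called as higher and 2 as lower, with a median of 0.57, beside 4.01% and 4.06% called over all genes tested. Of the rises, only Hist1h4h, Hist1h2bh and Hist1h2bg were called against all 4 controls. Those of Hist1h4n, Hist1h3e and Hist1h3d overlapped the control libraries. Hist1h4h was at 58.9 and 63.4 FPKM against 8.42 to 28.7 (log2 fold change 1.83), while the linker histone gene Hist1h1c was at 81.3 and 80.8 against 99.7 to 244 (-1.14). Several of the rises were of low genes, with Hist1h2bl, Hist1h2bh and Hist1h4j at or under 5.19 FPKM in all 10 libraries. Near-identical copies make the level of a single histone gene uncertain. The libraries were of mRNA, and how fully they hold histone transcripts was not tested. Of 20 cytosolic aminoacyl-tRNA synthetase genes, which charge tRNAs with amino acids, 14 were higher and 0 lower by adjusted p alone, and 2 were called, Rars at 95.5 and 111 FPKM against 38.9 to 47.2 (1.19) and Iars at 113 and 128 against 49.1 to 82.4 (1.02).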
